A study of Mus musculus with 6 samples.

Results

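Znrf3 and the genes that act with it on Wnt receptor turnover were examined in cortical cells of mouse embryos after knockdown of Nat14. The 10 genes were taken by symbol from the authors' deposited table, and all 10 were among its 21937 rows. They are the ubiquitin ligases Znrf3 and Rnf43, the receptors Lgr4, Lgr5 and Lgr6, the ligands Rspo1, Rspo2, Rspo3 and Rspo4, and Axin2, a target of the pathway. Znrf3 was chosen by its fold change and p-value in this same comparison, so those values describe it and test nothing. The other 9 were added for their known roles beside it.

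Neuronal progenitors of the cortex received a plasmid for an shRNA against Nat14 (shNat14, 3 libraries) or for a control shRNA (NTC, 3 libraries) by in utero electroporation at embryonic day 14.5. After 4 days, at embryonic day 18.5, live GFP-positive cells of the dissociated cortex were sorted for RNA sequencing. Genotype, strain and litter of the embryos, the promoters on the plasmids and the number of hairpins per gene are not given in the labels. Whether libraries of the same group stem from different embryos is also not stated, so p-values reflect only the spread among these libraries, and that spread may be technical. The sorted cells were a mixture, in which fewer cells of a type and less RNA per cell cannot be told apart. Fold changes are shNat14 over NTC. The table does not name that direction, which was read from the negative log2 fold change of the shRNA's target (Nat14, -3.31 per the authors' deposited table, adjusted p = 1.2e-08). The table gives for each gene a log2 fold change, a mean level over all libraries as log2 CPM (reads of a gene scaled to the size of the library), a p-value and an adjusted p-value, with no values per library. Levels in each group, standard deviations and depths are therefore not shown. The sex of the embryos is not among the sample labels used here. Xist, an RNA of female cells, stood at 5.12 (adjusted p = 0.0112) and its antisense RNA Tsix at 5.34 (p = 0.000809) per the authors' deposited table. The groups may thus differ in the sex of their embryos, which cannot be told apart from the knockdown in any value here. Its part in the value of Znrf3 was not tested.

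Wnt ligands act through Frizzled receptors and the co-receptors Lrp5 and Lrp6, and their signal stabilises beta-catenin. Znrf3 and Rnf43 are membrane ubiquitin ligases that mark Frizzled for removal from the cell surface and so hold the signal down. R-spondins bind an LGR receptor on one side and Znrf3 or Rnf43 on the other, which clears the ligase from the membrane and leaves more Frizzled in place. In several tissues Znrf3, Rnf43, Lgr5 and Axin2 are themselves targets of beta-catenin, so that the ligases and Axin2 form negative feedback. In the embryonic cortex Wnt signals act on radial glia, and the cortical hem, at the medial edge, is a known source of Wnt ligands.

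Znrf3 had log2 fold change 1.46 per the authors' deposited table, which is 2.76-fold higher in shNat14, at mean log2 CPM 7.10. Its p-value there was 0.000123 and its adjusted p was 0.0630, above the threshold of 0.05 at which genes are called here. None of the 10 members was called, against 0.155% of all 21937 genes, or 34 genes, per the authors' deposited table. At adjusted p under 0.1 Znrf3 would be the 1 member called, where 0.251% of all genes are. It was also the 1 member at an unadjusted p under 0.05, where 6.35% of the 17400 genes above the lowest mean level (log2 CPM -3.09) were. By unadjusted p, Znrf3 ranked 43 among all genes and 20 among the 10969 genes at or above the median mean level (log2 CPM 1.71). When adjusted instead over the genes above the lowest level, the authors' p-value of Znrf3 gave an adjusted p of 0.04995, and over those at or above the median level 0.0673. The call of Znrf3 therefore depends on which genes share the adjustment. Since libraries cannot be left out, it is not known whether its value rests on a single library.

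To show how far genes at a given level spread, each member was set among the 1000 other genes nearest to it in mean level. The middle 90% of these genes ran from -0.43 to 0.58 on the log2 scale around Znrf3, which lay above that range, as described by the values that chose it. The other 9 members lay inside the range of their own neighbours in level. For the low members these ranges were wide, as for Rspo1, where the range ran from -5.26 to 5.05 on the log2 scale.

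**Figure D1:**
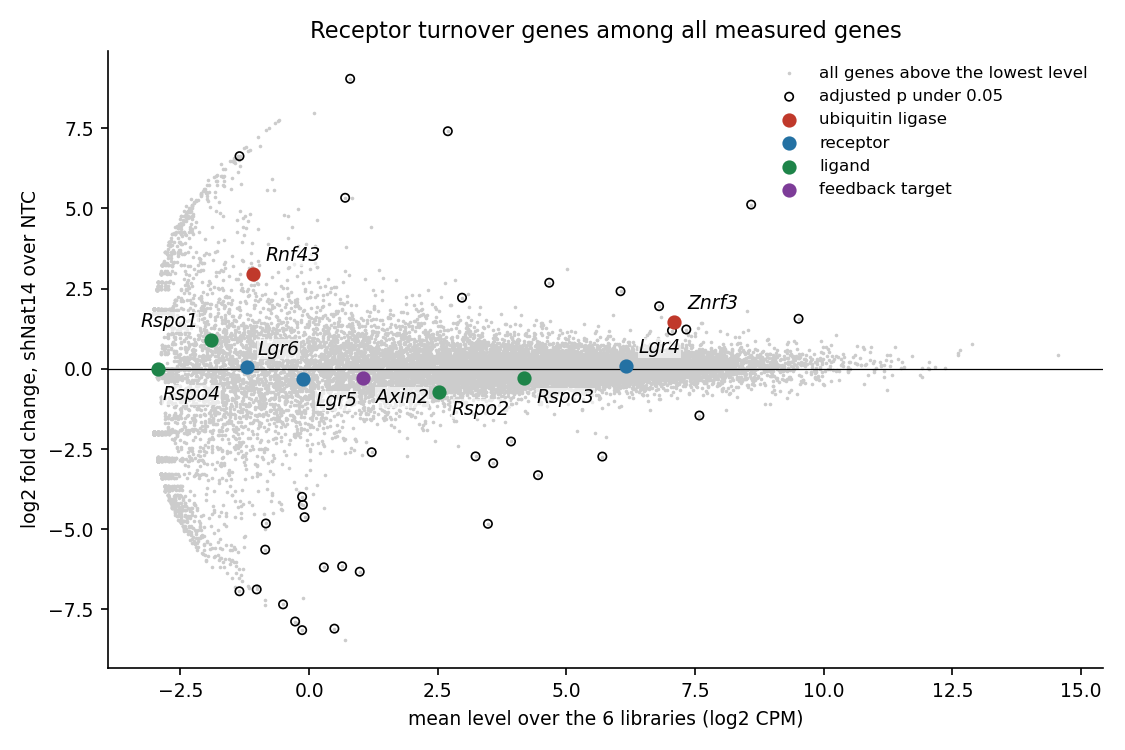
Log2 fold change of shNat14 over NTC (vertical axis) against mean level over all libraries as log2 CPM (horizontal axis), for the genes above the lowest level in grey, genes with an adjusted p under 0.05 as open circles and the members in the colour of their role. Znrf3 stands at 7.10 on the level axis and 1.46 on the fold change axis, near called genes but without a call, and Rnf43 lies higher at a low level where the grey points spread widely.

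Rnf43, the close relative of Znrf3 with the same action on Frizzled, had a larger log2 fold change of 2.97 per the authors' deposited table but a p-value of 0.0713 and an adjusted p of 1. Its mean log2 CPM was -1.08, and without values per library or depths the size of its fold change cannot be bounded. Genes near this level could be called. Blnk, at mean log2 CPM -1.02, had log2 fold change -6.88 (adjusted p = 0.0493) per the authors' deposited table. Of the 34 called genes 16 were at or above the median level, and the rest were below it. The genes nearest to it in mean level had a middle 90% of log2 fold changes from -3.81 to 3.20, which holds the value of Rnf43. Both ligases thus had positive fold changes, of which neither was called. Per kilobase of exon, the mean level of Znrf3 was a log2 CPM of 4.12 and that of Rnf43 was -3.80, a difference of 7.92 on the log2 scale. Almost all reads of this pair of ligases were therefore those of Znrf3.

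Among the receptors, Lgr4 had the highest level per length. It had log2 fold change 0.10 per the authors' deposited table (p = 0.790) at mean log2 CPM 6.16, and genes at its level ran from -0.50 to 0.55. Lgr5, which marks stem cells in the adult gut, stood at -0.32 on the log2 scale per the authors' deposited table (p = 0.686) with a mean log2 CPM of -0.12. Lgr6, the third receptor of the R-spondins, stood at 0.06 per the authors' deposited table (p = 1) with a mean log2 CPM of -1.20. Per kilobase of exon the mean levels were a log2 CPM of 3.60 for Lgr4, -3.47 for Lgr5 and -3.97 for Lgr6. The receptor side of the module was thus made up almost wholly of Lgr4 reads, with a fold change near 0.

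**Figure D2:**
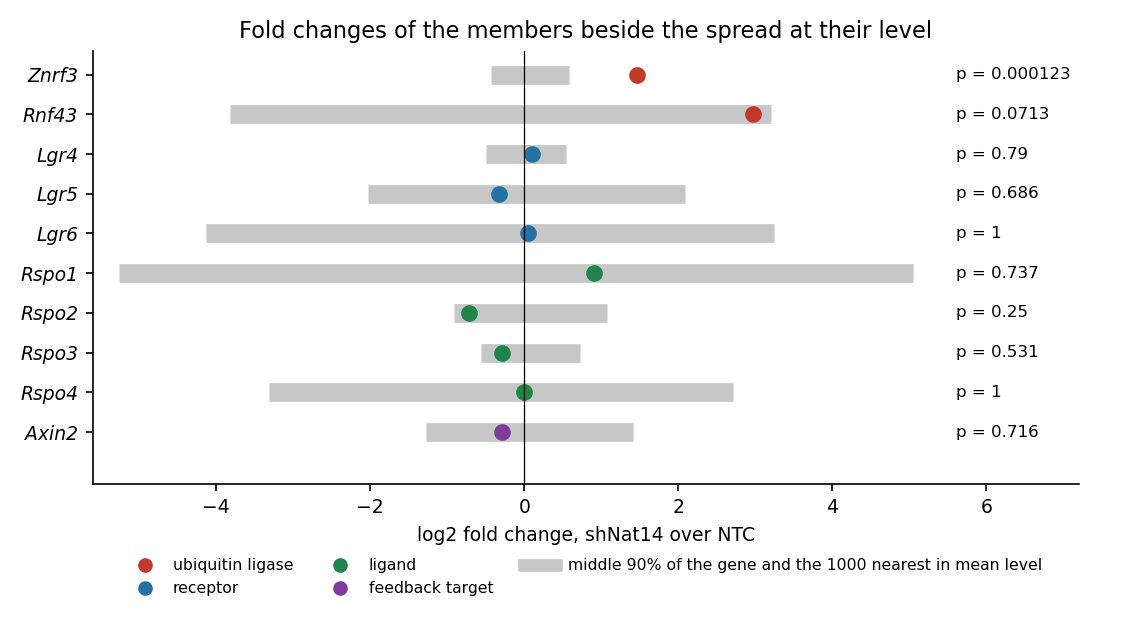
Log2 fold change of shNat14 over NTC (horizontal axis) for each member (vertical axis), as a point in the colour of its role, with its unadjusted p at the right and a grey bar for the middle 90% of the gene and the 1000 others nearest to it in mean level. Znrf3 lies to the right of its bar, which ends at 0.58, and the other 9 members lie within theirs.

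The R-spondins differed in level more than in fold change. Rspo3 had a mean log2 CPM of 4.17 and log2 fold change -0.29 per the authors' deposited table (p = 0.531). Rspo2 had a mean log2 CPM of 2.52 and log2 fold change -0.71 per the authors' deposited table (p = 0.250), the most negative value of the 10 members. Rspo1 stood at 0.90 on the log2 scale per the authors' deposited table (p = 0.737), at mean log2 CPM -1.90. Rspo4 lay close to the lowest level of the table, at mean log2 CPM -2.94, with a fold change listed as 0 and p = 1 per the authors' deposited table. Per kilobase of exon the mean level was a log2 CPM of 2.54 for Rspo3, 0.16 for Rspo2, -2.86 for Rspo1 and -4.18 for Rspo4. The order of mean levels per length over all members was Znrf3, Lgr4, Rspo3, Rspo2, Axin2, Rspo1, Lgr5, Rnf43, Lgr6 and Rspo4. The lowest mean level of the table (log2 CPM -3.09) was not subtracted before division by exon length. Among the low genes, such as Rspo1 and Rspo4, the order therefore partly reflects exon length. Without values per library it cannot be said which neighbours in this order differ beyond their spread. In all, 5 members had a positive fold change, 4 a negative fold change and 1 a value of 0, and their median log2 fold change was 0.03, beside 0.00 over all genes above the lowest level. Of those genes 50.3% had a positive and 47.6% a negative fold change.

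**Figure D3:**
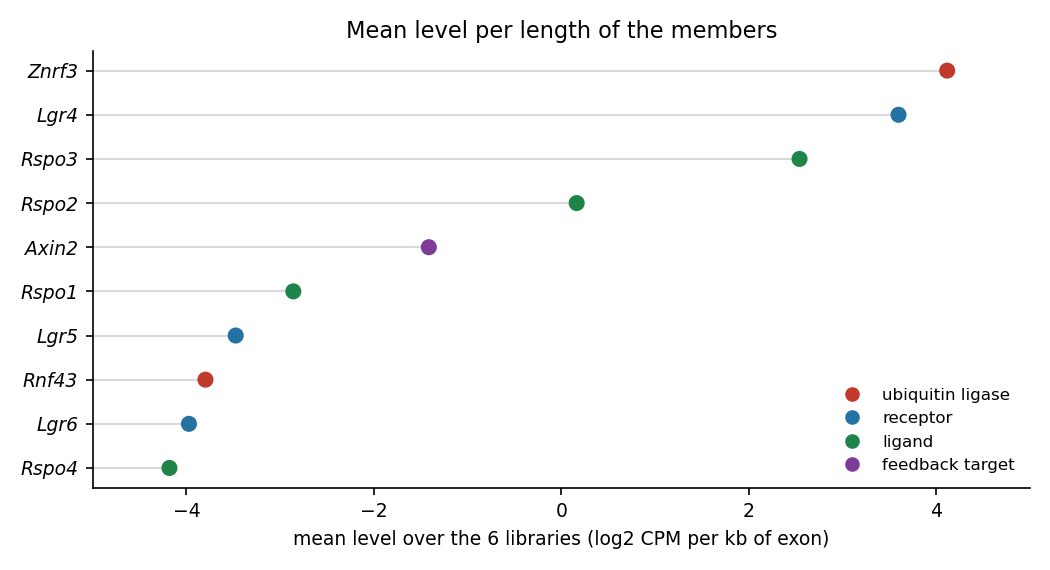
Mean level over all libraries as log2 CPM per kilobase of exon (horizontal axis, a log scale) for each member (vertical axis), coloured by role. Znrf3 at 4.12, Lgr4 at 3.60 and Rspo3 at 2.54 stand highest, and Rspo4 at -4.18 stands lowest. The lowest mean level was not subtracted, so the order of the low genes partly reflects exon length.

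Axin2, a scaffold of the complex that degrades beta-catenin and a widely used readout of the pathway, had log2 fold change -0.29 per the authors' deposited table (p = 0.716). Its sign was opposite to that of Znrf3. Its mean log2 CPM was 1.05, and genes at its level had a middle 90% of log2 fold changes from -1.27 to 1.41, so a change of the size seen for Znrf3 would have been outside that range only narrowly. Other targets of beta-catenin known for feedback or for use as readouts in various tissues gave no call either. Of 20 such genes 19 were above the lowest level, 9 with a positive and 10 with a negative fold change. None had an unadjusted p under 0.05, where 6.35% of all genes above the lowest level were. Of the 20, 9 reached the median level of all genes, and at low levels fold changes spread widely. For the rest the lack of a small p therefore gives no bound on a change. The median log2 fold change of the 19 was -0.02. Tnfrsf19, a receptor of the tumour necrosis factor family, stood at -0.07 per the authors' deposited table at mean log2 CPM 5.94. The growth factor Fgf20 stood at 4.88 on the log2 scale per the authors' deposited table (p = 0.122), but at mean log2 CPM -2.36. Bmp4, a bone morphogenetic protein, stood at -1.59 per the authors' deposited table (p = 0.0737), also at a low level.

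Across the rest of the pathway 12 lists of 163 genes were compared with the members by counts. Above the lowest level were 153 of them, with a median log2 fold change of -0.03. Positive fold changes numbered 66 (43.1%, beside 50.3% of all genes above the lowest level). Negative fold changes numbered 86 (56.2%, beside 47.6% of all those genes), and 1 list gene was at 0. None of the 153 was called, and 8 had an unadjusted p under 0.05, 5 higher and 3 lower in shNat14. That share of 5.23% was close to the 6.35% of all genes above the lowest level. Of the 101 list genes at or above the median level, 0 had an absolute log2 fold change as large as that of Znrf3, which was itself picked for its value.

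On the side of the signal, 16 of 19 Wnt ligands were above the lowest level, 5 with a positive and 10 with a negative fold change, 1 at 0 and none at an unadjusted p under 0.05. Wnt7b, a cortical Wnt ligand, stood at 0.13 per the authors' deposited table at mean log2 CPM 5.88. The smallest p in each direction was that of Wnt3a, a ligand of the cortical hem (5.17, p = 0.1004), and of Wnt16 (-4.45, p = 0.0820) per the authors' deposited table. Their mean log2 CPM was -2.24 for Wnt3a and -2.56 for Wnt16, near the lowest level. Genes of Wnt production included the list gene with the smallest p of all. This was Wls, the carrier that brings Wnt proteins to the cell surface, with log2 fold change -0.88 per the authors' deposited table (p = 0.00893, adjusted p = 0.631) at mean log2 CPM 4.99. Of the 7 genes of that list 5 had a positive fold change, such as Tmed5, a cargo receptor of early secretion, at 0.53 (p = 0.0621) and the retromer subunit Vps35 at 0.14 per the authors' deposited table.

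Frizzled and LRP receptors, on which Znrf3 acts, had 4 positive and 8 negative fold changes among 12 genes, with a median log2 fold change of -0.11. Fzd3, a Frizzled needed for axon tracts, stood at -0.18 per the authors' deposited table at mean log2 CPM 7.83, and Fzd6 at 0.77 (p = 0.439) at a low level. The co-receptor Lrp5 stood at -2.15 per the authors' deposited table (p = 0.0451, adjusted p = 0.985), at mean log2 CPM -1.19. Its partner Lrp6 stood at -0.15 per the authors' deposited table (p = 0.630) at mean log2 CPM 6.04. Among 14 other co-receptors and polarity genes 8 fold changes were positive and 6 negative, none at an unadjusted p under 0.05. In the authors' deposited table Musk, a kinase of the neuromuscular junction, stood at 2.28 (p = 0.0597), the secreted Cthrc1 at -0.43 (p = 0.390) and the proton pump accessory protein Atp6ap2 at 0.30 (p = 0.206).

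Secreted antagonists and their receptors had 7 positive and 9 negative fold changes among 16 genes above the lowest level, with a median log2 fold change of -0.17. Dkk3, of the Dickkopf family, stood at -0.66 per the authors' deposited table (p = 0.0361, adjusted p = 0.951) and was the single gene of this list at an unadjusted p under 0.05. Sostdc1, which binds LRP co-receptors, stood at 1.31 per the authors' deposited table (p = 0.182), and Sfrp1, a soluble Frizzled-related protein, at -0.02 with a mean log2 CPM of 8.96.

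**Figure D4:**
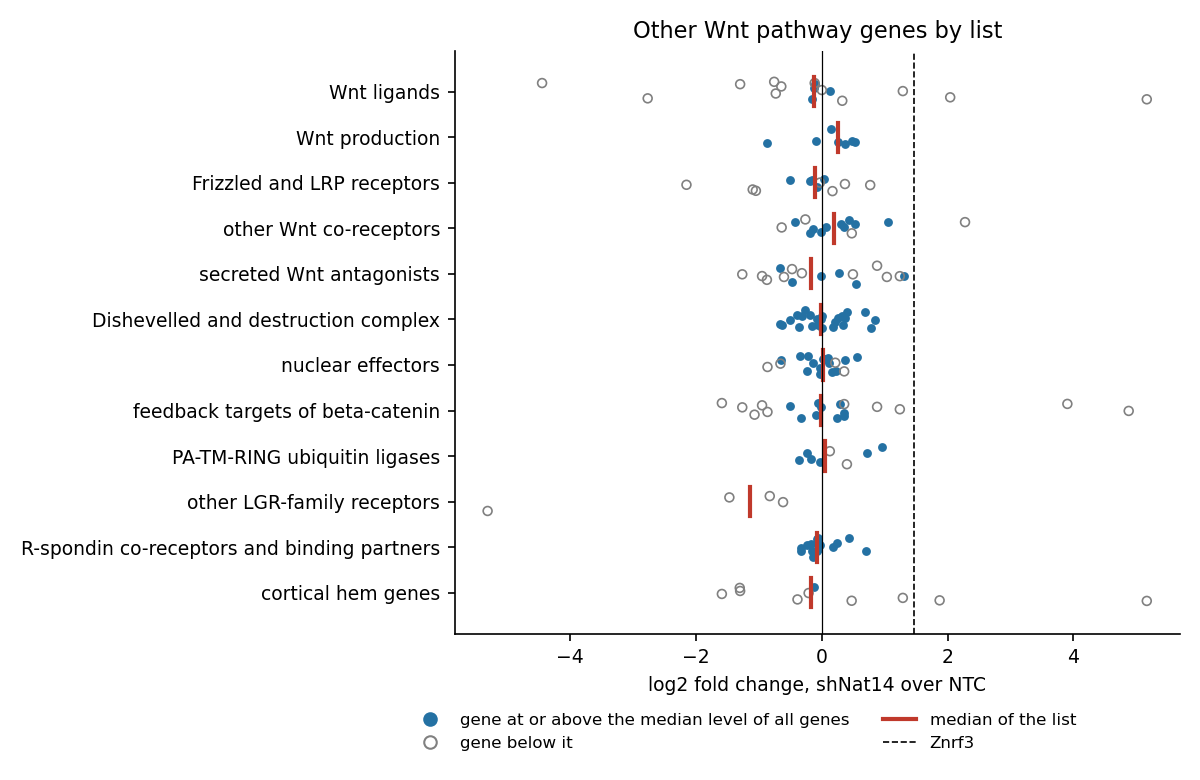
Log2 fold change of shNat14 over NTC (horizontal axis) for the genes of 12 Wnt pathway lists (vertical axis), filled where the mean level reached the median over genes and open below it, with the median of each list as a red bar. The dashed line marks Znrf3 at 1.46, and no filled point lies to the right of it.

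Downstream of the receptors, the 24 genes of Dishevelled and the destruction complex were all at or above the median level, 11 with a positive and 13 with a negative fold change. The kinases Csnk1g3, which phosphorylates Lrp6, and Gsk3b, which phosphorylates beta-catenin, stood at 0.78 (p = 0.0286) for Csnk1g3 and 0.68 (p = 0.0326) for Gsk3b per the authors' deposited table. Neither kinase was called. The scaffold Axin1, the relative of Axin2, stood at -0.66 per the authors' deposited table (p = 0.0873), and Dvl1, a Dishevelled adaptor that links Znrf3 to Frizzled, stood at 0.00 (p = 1). Nuclear effectors had 10 positive and 9 negative fold changes among 19 genes, none at an unadjusted p under 0.05. Their values ran from -0.86 to 0.56, with Pygo2, a co-activator of beta-catenin, at 0.56 (p = 0.174), Bcl9l, a cofactor of beta-catenin, at -0.65 (p = 0.217) and the chromatin remodeller Smarca4 at -0.03 per the authors' deposited table.

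Znrf3 and Rnf43 belong to a family of ubiquitin ligases with a protease-associated domain, a membrane span and a RING domain. Of 10 relatives 8 were above the lowest level, 4 with a positive and 4 with a negative fold change. Those with an unadjusted p under 0.05 numbered 2, or 25.0% of these 8, beside 6.35% of all genes above the lowest level. Both were higher in shNat14 and neither was called. They were Rnf149, at 0.96 on the log2 scale (p = 0.0149, adjusted p = 0.744), and Rnf130, at 0.72 (p = 0.0426), both per the authors' deposited table. Rnf13 stood at -0.17 and Rnf215 at -0.36 (p = 0.411) per the authors' deposited table. Co-receptors and binding partners of R-spondins and Znrf3 had 4 positive and 12 negative fold changes among 16 genes, with a median log2 fold change of -0.07. All 16 were at or above the median level, where 53.6% of genes had a positive and 46.4% a negative fold change. Usp46, a deubiquitinase that with its cofactors Wdr48 and Wdr20 stabilises Lrp6, stood at 0.70 per the authors' deposited table (p = 0.0417, adjusted p = 0.985). The cofactors stood at -0.33 for Wdr48 (p = 0.434) and -0.07 for Wdr20, listed under its older symbol Wdr20a, per the authors' deposited table. The proteoglycan Sdc3 stood at -0.34 per the authors' deposited table (p = 0.310). The other receptors of the LGR family had 4 negative fold changes among 4 genes above the lowest level, all of them below the median level, among them the luteinizing hormone receptor Lhcgr at -0.83 (p = 0.245) and the relaxin receptor Rxfp1 at -5.31 (p = 0.0628) per the authors' deposited table.

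The nearest measured genes on either side of Znrf3, in the gene order of RefSeq, were Kremen1, a receptor of Dickkopf proteins, and Xbp1, a transcription factor of the unfolded protein response. Kremen1 stood at -0.60 (p = 0.326) and Xbp1 at 0.21 (p = 0.599) per the authors' deposited table, so neither neighbour showed a fold change of the size of Znrf3. Xbp1 had mean log2 CPM 7.19, but Kremen1 had 1.54, below the median level. Genes absent or at the lowest level lay between, 3 on the side of Kremen1 and 2 on that of Xbp1, so these neighbours do not cover the whole locus. No other gene of the GENCODE annotation overlaps Znrf3, Lgr4, Lgr6 or Rspo2. By whole gene span, genes annotated on the opposite strand overlap Rnf43, Lgr5, Rspo1, Rspo3, Rspo4 and Axin2. Rnf43 and Rspo3 also have overlapping genes on the same strand. Overlap of exons was not examined, and the sources used here do not say whether counting used strand. Whether reads of such pairs were counted apart is therefore not known.

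Markers of the sorted cells were read beside these values. The 8 markers of projection neurons were all at or above the median level, from a mean log2 CPM of 2.42 for Fezf2 to 11.30 for Neurod6, with a median log2 fold change of 0.22. Radial glia markers had a median of -0.14, with 2 of 8 positive. The 6 markers of microglia and the 6 of astrocytes all had negative fold changes, with medians of -1.47 and -0.89. Of these, 4 microglia and 3 astrocyte markers had an unadjusted p under 0.05, where 6.35% of all genes above the lowest level were. Choroid plexus markers had 6 of 7 positive fold changes with a median of 0.91, and Ttr stood at 1.80 (p = 0.0650) per the authors' deposited table. Of these 7 markers 3 were at or above the median level, and 0 had an unadjusted p under 0.05. All 6 endothelial markers had positive fold changes, with a median of 1.43, but 1 had an unadjusted p under 0.05. The 1 endothelial marker at or above the median level, Cldn5, stood at 0.18 (p = 0.821) per the authors' deposited table. Interneuron markers had 5 of 6 negative fold changes, 4 of them at an unadjusted p under 0.05. Of mural cell markers 3 of 5 were positive, of meningeal fibroblast markers 2 of 6, of oligodendrocyte lineage markers 1 of 5, of intermediate progenitor markers 3 of 4 and of pan-neuronal markers 2 of 4. Unadjusted p-values under 0.05 were also found for 2 mural cell markers and 1 projection neuron marker, all higher in shNat14. Among meningeal fibroblast and erythroid markers 1 each had such a p, both lower. Radial glia, oligodendrocyte lineage, intermediate progenitor and pan-neuronal markers had 0. The erythroid marker Hba-a1 lay at the lowest level, and the other markers lay above it, apart from 1 without a match. Cortical hem genes had 4 positive and 6 negative fold changes among 10, with none at an unadjusted p under 0.05 and Wnt5a at -0.12 per the authors' deposited table. None of these marker genes was called. The smallest p among them was that of the astrocyte marker Apoe, at -1.10 (p = 0.00021, adjusted p = 0.0864) with mean log2 CPM 8.95, per the authors' deposited table. The part of these markers in the values of Znrf3 and the R-spondins was not tested.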

How the data were processed

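RNA was sequenced from sorted cells in 3 shNat14 and 3 NTC libraries, grouped by title. The log2 fold changes, mean log2 CPM, p-values and adjusted p-values were deposited by the authors, per the file headers, and were not altered. Per the submitters' processing notes, DESeq, HTSeq 0.5.4p1, SAMtools 0.1.19 and TopHat2 2.0.8 are named without their roles, as is hg19, a human build, so no coordinates are given. The authors' normalization, filters, strand setting and test, and the depth per library, are items not given in the sources used here, so no interval is given. A Benjamini-Hochberg adjustment recomputed over all rows differed from the deposited one by at most 4.05e-05, and the code was tested on simulated p-values. No further test was run.

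The members and lists were chosen with earlier results of these data known. Besides the members and Nat14, the named genes are, per list, those with the highest mean level, the smallest p in each direction or p under 0.01. Lrp6, Rnf130, Dvl1, Wdr48, Kremen1, Xbp1, Xist, Tsix and the marker genes were named after their values were seen. The lists hold 250 entries. Symbols matched for 244, older symbols in RefSeq (GRCm38.p6) for 5, and 1 entry had no match. A fold change within 1e-06 of 0 counted as 0. Levels per kilobase use the union of exons in GENCODE M21, which may differ from the authors' annotation. Since no values per library were used, no genes could be ranked by likeness to Znrf3. Python 3.11.15, numpy 2.4.6, pandas 2.3.3, scipy 1.17.1 and matplotlib 3.10.9 were used.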

Additional observations from a re-analysis of the deposited data

How the results depend on the processing

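None of the 10 members was called at adjusted p under 0.05. At adjusted p under 0.1 the 1 member called was Znrf3, where 0.251% of all genes were. Znrf3 was also called, at 0.04995, when p-values were adjusted over genes above the lowest level. The share of all genes called in that setting was not computed, but it includes every gene ahead of Znrf3, which ranked 43 by p. At 0.01, with Bonferroni correction, with the recomputed adjustment and over genes of at least the median level the count of members called was 0. Znrf3 was the 1 member at an unadjusted p under 0.05, where 6.35% of genes above the lowest level were. At 0.1 there were 2 members, with Rnf43, which ranked 1481 by p among all 21937 genes. The share of all genes under 0.1 was not computed. Wnt3a, at p = 0.1004 per the authors' deposited table, ranked 1977, so fewer than 1977 genes were under 0.1. Re-centring moved each fold change by 0.003 on the median of genes above the lowest level and by 0.03 on that of genes at or above the median level, where Znrf3 stood at 1.46 and 1.43. Limited to genes at or above the median level, 7 counts for single lists moved by over 1.5 times, each on fewer genes. The pooled counts over the pathway lists did not. Leaving out a replicate could not be computed. No paired analysis was possible because values per library were not used here. Without depths, a fold change at a low level, such as that of Rnf43, cannot be bounded.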

Other observations

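Per the authors' deposited table, Znrf3 was among 21 genes with an adjusted p from 0.05 to 0.1, of which 9 were higher and 12 lower in shNat14. At or above the median level were 12 of these, 8 higher and 4 lower. Nr2f2, the nuclear receptor also called COUP-TFII, stood at 1.62 (log2) per the authors' deposited table (adjusted p = 0.0864), Mlf1 at 1.69 (adjusted p = 0.0713) and the RNA-binding protein gene Rbm26 at 1.21 (adjusted p = 0.0630). Trappc6b, a subunit of a vesicle tethering complex, stood at 1.19 (adjusted p = 0.0805) per the authors' deposited table. On the lower side the matrix inhibitor Timp4 stood at -1.56 (adjusted p = 0.0662) and the matrix protein Mfap4 at -1.29 (adjusted p = 0.0971) per the authors' deposited table. The astrocyte marker Apoe, also lower, stood at -1.10 (adjusted p = 0.0864) per the authors' deposited table. None of them passed the threshold, and they were named after their values were seen.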
